A study of Homo sapiens with 15 samples.

Results

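Osteoblast lineage genes were described in 143B cells, a human osteosarcoma cell line derived from HOS cells and transformed with a Ki-ras oncogene. The set comprised 9 of the 62700 genes in the count tables: the transcription factors RUNX2, SP7, DLX5 and MSX2, the phosphatase ALPL, and the non-collagen bone matrix genes SPP1, IBSP, BGLAP and SPARC. They were chosen by name, through the Ensembl identifiers that carry these symbols. No cutoff on a measured value was used, but earlier results of these data were known when they were chosen. RNA-seq covered 15 libraries, 3 for each of 5 conditions. Non-OSCs were 143B cells grown attached to plastic in serum-containing medium. OSCs, the osteosarcoma stem-like cells of the study, were 143B cells grown as floating spheres in serum-free medium with B27, EGF and bFGF, so culture format and medium differ together between OSCs and non-OSCs. The other 9 libraries came from 143B OSCs infected with lentivirus: a control hairpin (shCtrl), or 1 of 2 hairpins against the pyruvate dehydrogenase kinase PDK1 (shPDK1#1 and shPDK1#2). The labels give the genotype of non-OSCs, OSCs and shCtrl cells as WT, and they do not say whether the 3 libraries of a condition came from separate cultures, so the p-values measure only the spread between these libraries. The comparisons ask whether the bone-forming programme differs between sphere and adherent cells, and after knockdown of PDK1 in spheres.

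Osteosarcoma is a bone tumour whose cells make osteoid, and osteoblast genes mark how far along the lineage its cells are. RUNX2 is the master transcription factor of the lineage and acts upstream of SP7 (osterix), while the homeobox factors DLX5 and MSX2 respond to BMP signalling and tune osteoblast genes in opposite directions. ALPL, tissue-nonspecific alkaline phosphatase, removes the mineralization inhibitor pyrophosphate. SPP1 (osteopontin), IBSP (bone sialoprotein), BGLAP (osteocalcin) and SPARC (osteonectin) encode matrix proteins that bind mineral, collagen or cells. BGLAP and IBSP are late markers of mature osteoblasts, while SPP1 and SPARC are also made by many other cells and tumours.

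Promoter sequences are shown for 4 of these genes, for the following reasons. SPP1 and IBSP lie in 1 cluster on chromosome 4, with starts 176.1 kb apart, and stood at opposite ends of the measured range. BGLAP is the classic RUNX2 target, and RUNX2 itself changed between OSCs and non-OSCs. RefSeq (GRCh38.p14) windows of the 250 bases before an annotated start existed for 7 of the 9 genes (10 windows). Bases that GENCODE 44 places inside the gene itself were left out, which removed 47 bases for SPP1 and 173 for RUNX2. The stretches are chr4:87975464-87975666 for SPP1, chr4:87799304-87799553 for IBSP, chr1:156241934-156242183 for BGLAP and chr6:45328080-45328156 for RUNX2, all on the plus strand, and the BGLAP stretch lies inside the longer gene PMF1-BGLAP. Capitals mark matches, on either strand, to a RUNX motif (TGTGGT or ACCACA), an AP-1 motif (TGANTCA) or a TATA box (TATAAA or TTTATA).
SPP1 upstream: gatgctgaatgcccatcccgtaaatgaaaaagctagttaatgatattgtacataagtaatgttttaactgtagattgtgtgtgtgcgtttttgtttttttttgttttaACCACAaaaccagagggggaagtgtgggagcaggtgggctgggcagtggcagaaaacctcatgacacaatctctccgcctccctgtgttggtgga
IBSP upstream: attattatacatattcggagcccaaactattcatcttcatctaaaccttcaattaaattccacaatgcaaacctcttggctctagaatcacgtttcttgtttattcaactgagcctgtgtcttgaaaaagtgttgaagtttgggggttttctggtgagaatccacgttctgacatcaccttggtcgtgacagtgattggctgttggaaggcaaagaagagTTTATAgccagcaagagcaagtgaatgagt
BGLAP upstream: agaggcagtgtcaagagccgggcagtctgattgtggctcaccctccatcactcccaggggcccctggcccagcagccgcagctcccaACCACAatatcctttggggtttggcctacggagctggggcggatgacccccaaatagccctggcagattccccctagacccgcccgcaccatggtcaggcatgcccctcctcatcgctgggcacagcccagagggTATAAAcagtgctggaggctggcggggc
RUNX2 upstream of the distal start: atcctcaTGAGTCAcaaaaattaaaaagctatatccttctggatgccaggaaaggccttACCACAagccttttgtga

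In the full 250-base windows, RUNX motif matches lay 142 bases before the start for SPP1, 163 for BGLAP, and 191 and 87 for the distal RUNX2 start, the last of which falls in bases not shown. None was found for IBSP, ALPL, MSX2, SPARC or the second RUNX2 start. A RUNX match occurs in 11% of the 35116 RefSeq windows of this length. The distal RUNX2 window also held an AP-1 match at 243 bases, a motif present in 6.57% of windows. TATA matches, present in 10.7% of windows, lay at 28 bases for BGLAP, 30 for IBSP and 29 for 1 of the 3 ALPL starts. A homeobox core (TAATTG or CAATTA), found in 6.7% of windows, occurred once, 201 bases before the IBSP start. The GC box (GGGCGG or CCGCCC), found in 42.6% of windows, matched in the BGLAP window, in the same ALPL window as the TATA match and before the second RUNX2 start. These matches describe the letters of the sequence only.

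Total counts per library were 7992499 to 11256536. A floor of 3 counts, the number that a count of 0 still allows, corresponded to 0.267 to 0.375 CPM (counts scaled to the size of each library). PDK1 was at 46.7, 44.7 and 44.4 CPM in the shCtrl libraries and 29.0, 27.9 and 27.3 CPM with shPDK1#1. In the shPDK1#2 libraries it was at 18.3, 21.5 and 19.6 CPM. Mean PDK1 was thus 62.0% of shCtrl with shPDK1#1 and 43.8% with shPDK1#2, and the 3 groups did not overlap. The deposited PDK1 counts were whole in 0 of 15 libraries. In the other experiment PDK1 averaged 46.6 CPM in non-OSCs and 70.3 CPM in OSCs, beside 45.2 CPM in the shCtrl spheres. The experiments were not tested against each other. Of the markers by which the study named malignant cells in tumours, COL1A1 was high in every condition (416.9 to 1303 CPM as condition means), whereas IBSP had no count in any library. Of the osteoblast markers RUNX2, SP7, ALPL, IBSP and BGLAP, RUNX2 and ALPL were above the floor in every library.

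The 9 genes ranged from no count in any library to a highest level of 2398 CPM, that of SPP1. To compare genes, CPM were divided by the length in kilobases of the canonical transcript. On this scale the non-OSC order was SPARC (159 CPM per kb), SPP1 (64.2), RUNX2 (6.81), MSX2 (6.09), DLX5 (4.91), ALPL (1.05) and BGLAP (0.200), with IBSP and SP7 at 0. RUNX2 and MSX2 overlapped in that order, as did BGLAP and the genes at 0, and the other neighbours were separated in all 3 libraries. In OSCs SPP1 came first (328 CPM per kb, against 274 for SPARC), followed by MSX2 (10.8), RUNX2 (3.13) and DLX5 (2.40), each separated from the next. With shPDK1#2 the order was SPP1 (1533 CPM per kb), SPARC (447), MSX2 (10.5), DLX5 (4.53), RUNX2 (2.66), ALPL (0.687) and BGLAP (0.404). There the first 6 genes were each separated from the next except ALPL, which overlapped BGLAP. In shCtrl and shPDK1#1, DLX5 and RUNX2 overlapped.

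**Figure D1:**
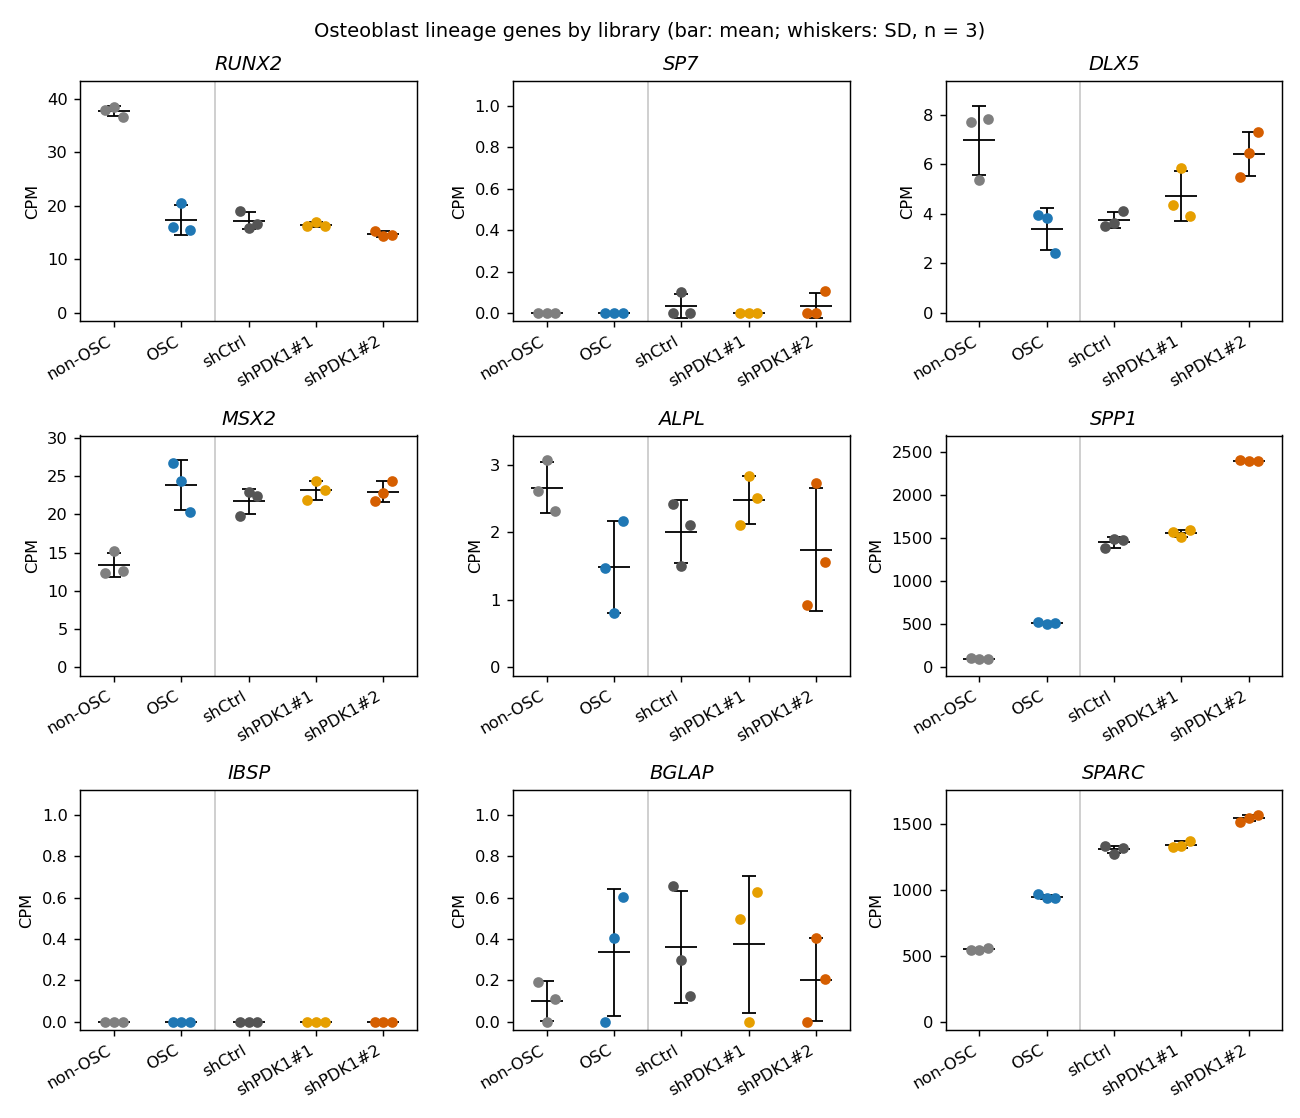
Level of each of the 9 genes (vertical axis, CPM, linear from 0) in every library, by condition; points are libraries, the bar is the mean and whiskers are the SD (n = 3), and the vertical line separates the tables of the 2 experiments. Mean SPP1 is 100.1 CPM in non-OSCs and 512 CPM in OSCs, and in the other experiment 1449 CPM with shCtrl and 2393 CPM with shPDK1#2. RUNX2 is highest in non-OSCs, and SP7 and IBSP sit at or next to 0 throughout.

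Among the transcription factors, RUNX2 fell in OSCs. Its level was 38.0, 38.5 and 36.7 CPM in the non-OSC libraries and 16.0, 20.5 and 15.5 CPM in the OSC libraries. Every OSC library was below every non-OSC library. The OSC mean of 17.3 ± 2.78 CPM (SD, n = 3) was 46.0% of the non-OSC mean of 37.7 ± 0.945, a log2 fold change of -1.11 (SE 0.108, adjusted p = 9.3e-09, quasi-likelihood test of edgeR, adjusted after Benjamini and Hochberg over all genes tested, as for every adjusted p here). In the hairpin libraries RUNX2 was at 19.0, 16.0 and 16.7 CPM with shCtrl and 16.2, 17.1 and 16.3 CPM with shPDK1#1. In the shPDK1#2 libraries it was at 15.4, 14.4 and 14.5 CPM. The shPDK1#2 libraries lay below all shCtrl libraries, and those of shPDK1#1 overlapped shCtrl. Neither hairpin passed the test for RUNX2: the log2 fold change was -0.06 for shPDK1#1 (95% interval -0.29 to 0.17, adjusted p = 0.88) and -0.22 for shPDK1#2 (interval -0.45 to 0.01, adjusted p = 0.159).

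SP7, the zinc finger factor that acts after RUNX2, was at the floor in all 5 conditions. It had 2 counts among 141320644 in the 15 libraries, 1 in a shCtrl library and 1 in a shPDK1#2 library. The 3 non-OSC libraries together held 0 counts, which allows up to 0.103 CPM, the 3 OSC libraries up to 0.115 CPM and the shPDK1#1 libraries up to 0.104 CPM. These limits cover counting error only. SP7 was left out of the fit by the filter on low counts, and no difference was detectable at this depth.

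DLX5 was low in all conditions and differed in both experiments. It was at 7.71, 5.36 and 7.82 CPM in non-OSCs (80, 49 and 71 counts) and at 3.94, 3.84 and 2.42 CPM in OSCs (32, 38 and 20 counts). The groups did not overlap, and DLX5 fell by 1.03 on the log2 scale in OSCs (SE 0.242, adjusted p = 0.000842). With shCtrl it was at 3.51, 3.61 and 4.10 CPM, with shPDK1#1 at 4.35, 5.86 and 3.93 CPM, and with shPDK1#2 at 5.49, 6.47 and 7.29 CPM. All shPDK1#2 libraries were above all shCtrl libraries, whereas 1 shPDK1#1 library lay within the shCtrl range. DLX5 rose with shPDK1#2 by a log2 fold change of 0.78 (SE 0.222, adjusted p = 0.010). Without shPDK1#2 replicate 3 this adjusted p was 0.0543. With shPDK1#1 the log2 fold change was 0.33 (interval -0.14 to 0.81, adjusted p = 0.566), and the contrast between the hairpins was 0.44 (interval 0.01 to 0.88, adjusted p = 0.17), so a difference between their effects on DLX5 was not established.

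MSX2, a homeobox repressor of osteoblast genes, moved opposite to DLX5 and RUNX2 between the cultures. It was at 12.3, 15.2 and 12.6 CPM in non-OSCs and 26.7, 24.4 and 20.3 CPM in OSCs. The groups did not overlap, and MSX2 rose 1.78-fold in OSCs (log2 fold change 0.83, SE 0.129, adjusted p = 7.8e-06). In the hairpin libraries it ranged from 19.8 to 24.4 CPM, with overlapping groups. The log2 fold changes of MSX2 were 0.10 for shPDK1#1 (interval -0.11 to 0.30, adjusted p = 0.727) and 0.08 for shPDK1#2 (interval -0.12 to 0.28, adjusted p = 0.6).

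ALPL, the phosphatase of mineral deposition, was measured with few counts, 8 to 28 per library. It was at 2.60, 3.07 and 2.31 CPM in non-OSCs and 1.48, 0.809 and 2.17 CPM in OSCs. Every OSC library was below every non-OSC library, but the log2 fold change of -0.86 (SE 0.376, interval -1.64 to -0.08) did not pass the test (adjusted p = 0.0514). Without OSC replicate 3 it did (log2 fold change -1.23, adjusted p = 0.0244). With the hairpins ALPL was at 2.41, 1.51 and 2.11 CPM (shCtrl), 2.12, 2.83 and 2.50 CPM (shPDK1#1), and 0.931, 2.73 and 1.56 CPM (shPDK1#2). All 3 groups overlapped, with intervals of -0.45 to 1.08 for shPDK1#1 and -1.01 to 0.59 for shPDK1#2 on the log2 scale (adjusted p = 0.775 and 0.746).

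SPP1, the adhesive phosphoprotein osteopontin, had the largest fold change of the 6 tested genes between OSCs and non-OSCs and the highest level per kilobase of the 9 in every sphere condition. It was at 107.8, 97.6 and 94.98 CPM in non-OSCs and 522.9, 503.2 and 509.8 CPM in OSCs. The groups were far apart, with a 5.11-fold higher mean in OSCs (log2 fold change 2.35, SE 0.0521, adjusted p = 1.69e-19). With shCtrl SPP1 was at 1378, 1489 and 1478 CPM, with shPDK1#1 at 1568, 1506 and 1588 CPM, and with shPDK1#2 at 2398, 2392 and 2389 CPM. All shPDK1#2 libraries were above all others, and they lay close together. SPP1 rose 1.65-fold with shPDK1#2 (log2 fold change 0.72, SE 0.0332, adjusted p = 1.24e-14) and was 1.54-fold higher with shPDK1#2 than with shPDK1#1 (log2 fold change 0.62, SE 0.0331, adjusted p = 2.87e-13). The shPDK1#1 libraries also lay above all shCtrl libraries, but the difference of 0.10 on the log2 scale (interval 0.03 to 0.17) did not pass the test (adjusted p = 0.105), except without shPDK1#1 replicate 2 (log2 fold change 0.12, adjusted p = 0.0298). The shCtrl and OSC libraries are both sphere cultures, yet SPP1 averaged 1449 ± 61.3 CPM in the former and 512 ± 10.01 CPM in the latter (SD, n = 3). These come from separate tables and were not tested against each other.

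SPARC, a collagen-binding matrix glycoprotein, had the same order of condition means as SPP1, with smaller fold changes. It was at 544.1, 544.2 and 560.4 CPM in non-OSCs and 965.8, 935.5 and 936.3 CPM in OSCs. The groups did not overlap, and SPARC rose 1.72-fold in OSCs (log2 fold change 0.78, SE 0.0380, adjusted p = 9.04e-14). With shCtrl it was at 1329, 1275 and 1315 CPM, with shPDK1#1 at 1324, 1333 and 1371 CPM, and with shPDK1#2 at 1517, 1546 and 1567 CPM. SPARC rose with shPDK1#2, whose libraries were above all others (log2 fold change 0.24, SE 0.0312, adjusted p = 1.35e-06, and 0.20 against shPDK1#1, adjusted p = 3.59e-05). The shPDK1#1 libraries overlapped shCtrl (log2 fold change 0.04, interval -0.02 to 0.10, adjusted p = 0.624).

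IBSP, the bone sialoprotein, had no count in any of the 15 libraries, which allows at most 0.0212 CPM over all of them. By condition the limit was 0.0988 to 0.115 CPM. It was therefore not detectable in any condition, and no ratio can be given.

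BGLAP, the mineral-binding hormone precursor osteocalcin, was at or near the floor. It had 2, 0 and 1 counts in non-OSCs, all at or under the floor, then 0, 4 and 5 in OSCs, 6, 3 and 1 with shCtrl, 4, 0 and 7 with shPDK1#1, and 0, 4 and 2 with shPDK1#2. The groups overlapped in all comparisons, and the exact two-sided permutation tests gave p = 0.5, 0.8, 0.5 and 0.6 for OSCs against non-OSCs, shPDK1#1 and shPDK1#2 against shCtrl, and shPDK1#2 against shPDK1#1, where 3 against 3 libraries cannot go below 0.1. BGLAP shares 40.9% of its exon sequence with the readthrough gene PMF1-BGLAP on the same strand, so the counting could split reads between them, and its deposited counts were whole in only 8 of 15 libraries. PMF1-BGLAP itself averaged 1.87 to 2.64 CPM by condition and was called in no comparison. The other 8 genes had whole counts in all 15 libraries. Exon overlap with genes on the opposite strand was 4.12% for SPARC and 2.703% for SPP1, and the sources used here do not state whether counting used strand.

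Counted together, 6 of the 9 genes passed the filter on low counts in each table, and SP7, IBSP and BGLAP did not. The filter asked for about 10 counts, scaled to library size, in at least 3 libraries. In the table of OSCs and non-OSCs ALPL reached this in all 3 non-OSC libraries and in 2 of the 3 OSC libraries, so it passed only together with the non-OSC group, where it was higher. Between OSCs and non-OSCs 5 of 6 were called, beside 63.9% of the 14287 genes tested. MSX2, SPP1 and SPARC were higher (32.4% of all genes tested) and RUNX2 and DLX5 lower (31.5%). In all 6 the libraries did not overlap, as in 66.9% of all genes. The median log2 fold change was -0.04, against -0.0053 over all genes. With shPDK1#1 0 of 6 were called by edgeR's quasi-likelihood test, beside 3.06% of the 14574 genes tested (1.62% higher and 1.44% lower), and 0 of 6 by DESeq2. SPP1 alone had an unadjusted p under 0.05 in edgeR's test, and the share of all genes at that threshold was not counted. SPP1 alone did not overlap shCtrl (19.3% of all genes), and the median log2 fold change was 0.10 against 0.0024 over all genes.

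With shPDK1#2 3 of 6 genes were called, DLX5, SPP1 and SPARC, all higher, beside 26.2% of all genes tested (12% higher and 14.2% lower). These 3 and RUNX2 did not overlap shCtrl, as in 39.5% of all genes, and the median log2 fold change was 0.16 against 0.0083. Between the hairpins 2 of 6 were called, SPP1 and SPARC, both higher with shPDK1#2, beside 16.3% of all genes (6.5% higher and 9.78% lower). They and RUNX2 did not overlap between the hairpins (30.7% of all genes), with a median of 0.09 against 0.0045. The shPDK1#1 and shPDK1#2 comparisons share their shCtrl libraries. In bulk RNA a change in the share of cells that express a gene and a change per cell cannot be told apart.

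Markers of other cell types were read in the same libraries. Their calls stand beside the shares of all genes tested that were called. These were 63.9% between OSCs and non-OSCs, 3.06% with shPDK1#1, 26.2% with shPDK1#2 and 16.3% between the hairpins. Between OSCs and non-OSCs 2 of 4 chondrocyte, 2 of 5 adipocyte and 1 of 2 pericyte markers were tested. Among 4 chondrocyte markers SOX9 was well above the floor and rose in OSCs (272.8 to 312.7 CPM, log2 fold change 0.20, adjusted p = 0.000766), and the list, mostly SOX9, summed to 274.3 to 283.2 CPM in non-OSCs, 304.9 to 326.7 in OSCs and 324.0 to 360.9 in the hairpin libraries. With shPDK1#2 the cartilage proteoglycan gene ACAN fell (5.27 to 2.69 CPM, log2 fold change -0.97, adjusted p = 0.0057) and the cartilage collagen gene COL2A1 rose (1.23 to 2.52 CPM, log2 fold change 1.01, adjusted p = 0.0464), the latter with 7 to 31 counts per library and its call lost in 11 of 14 alternatives (adjusted p up to 0.189). Neither was called with shPDK1#1 (adjusted p = 0.242 and 0.915) or between the hairpins (0.392 and 0.118). Of 5 osteoclast and myeloid markers 3 were tested between OSCs and non-OSCs. CTSK and MMP9 were called higher in OSCs and CD14 lower, and MMP9 fell with both hairpins. CD14 had 18 to 23 counts in the non-OSC libraries and 1 to 5 in the OSC libraries, and CTSK 8 to 26 and 66 to 77. CD14 passed the filter only through the non-OSC group and CTSK only together with the OSC group, so that in both the group that let the gene pass was the higher one. That list summed to 29.2 to 33.2 CPM in non-OSCs, 78.6 to 81.5 in OSCs, 53.0 to 58.7 with shCtrl, 37.2 to 45.1 with shPDK1#1 and 23.7 to 28.7 with shPDK1#2, mostly from MMP9. Of 2 pericyte markers ACTA2 rose in OSCs, with a sum of 4.24 to 5.25 CPM in non-OSCs and 20.5 to 23.7 in OSCs. ACTA2 exons overlap genes on the opposite strand by 36.0%, and its counts were whole in 1 of 15 libraries. For MMP9 this overlap was 18.4%, and its counts were whole in 15 of 15 libraries. Of 5 adipocyte markers PPARG fell in OSCs (21.2 to 15.4 CPM), and the list summed to 23.0 to 26.5 CPM in non-OSCs, 17.6 to 19.2 in OSCs and 9.32 to 13.9 in the hairpin libraries. The 3 muscle markers summed to 1.45 to 4.61 CPM, with MYOD1 and MYOG at 0, the 3 endothelial markers to 0.208 to 1.85 CPM, with CDH5 at 0, and the 3 lymphocyte markers to at most 2 counts in any library. The part of these differences in the results for the osteoblast genes was not tested.

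**Figure D2:**
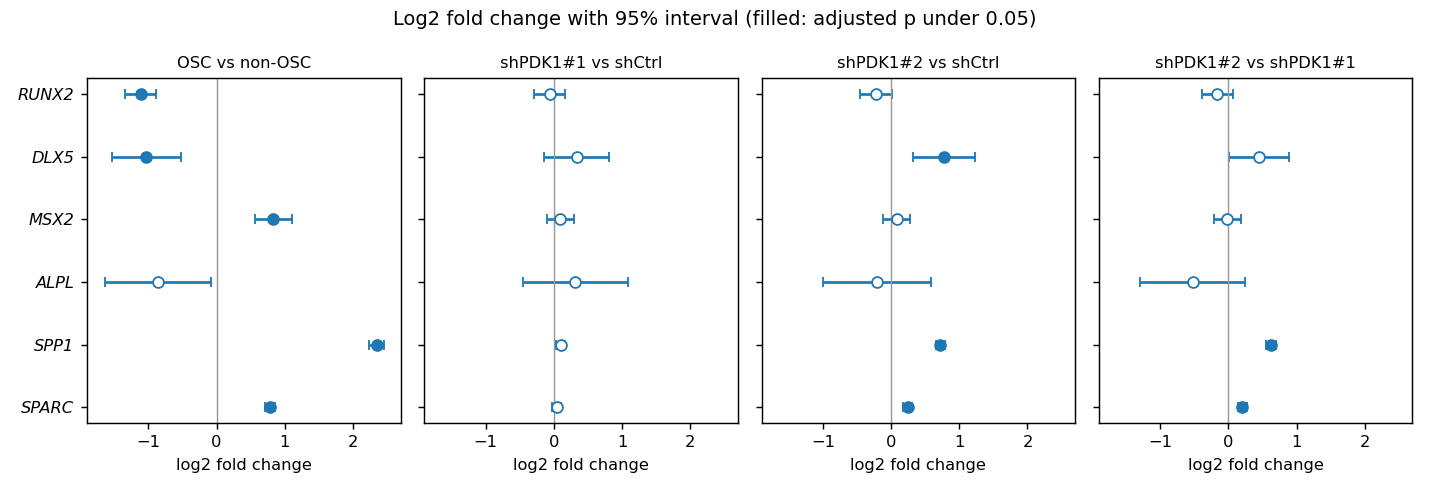
Log2 fold change (horizontal axis) of the 6 genes that passed the filter on low counts, in the 4 comparisons; points are estimates, bars are 95% intervals, and filled points have an adjusted p under 0.05. SPP1 and SPARC are to the right of 0 and called in 3 of the 4 comparisons, RUNX2 and DLX5 are to the left in OSCs, and no point is filled for shPDK1#1.

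SPP1 and IBSP belong to a cluster of mineral-binding phosphoprotein genes on chromosome 4 (GRCh38, chr4:87975667-87983532 for SPP1 and chr4:87799554-87812435 for IBSP, both on the plus strand). On GRCh38 with GENCODE 44 the other genes lie as follows: RUNX2 at chr6:45328157-45664349 (plus strand), SP7 at chr12:53326575-53345315 (minus strand), DLX5 at chr7:97020396-97024950 (minus strand), MSX2 at chr5:174724582-174730896 (plus strand), ALPL at chr1:21509397-21578410 (plus strand), BGLAP at chr1:156242184-156243317 (plus strand) and SPARC at chr5:151661096-151686975 (minus strand). Within 500 kb of the SPP1 start, the other members of that cluster, DSPP (367.1 kb before it), DMP1 (325.4 kb), IBSP (176.1 kb) and MEPE (154.3 kb), had 0 or 1 count in every library. SPARCL1, a matrix gene related to SPARC whose start lies 444.6 kb before that of SPP1 on the minus strand, had 0 to 2 counts. On the other side PKD2, a cation channel gene whose start is 32.0 kb away, averaged 30.8 CPM in non-OSCs and 38.8 in OSCs (log2 fold change 0.34, adjusted p = 0.00319), and 33.0, 31.1 and 31.0 CPM with shCtrl, shPDK1#1 and shPDK1#2, with no call. ABCG2, a drug efflux pump whose start on the minus strand is 256.0 kb away, went the other way, from 5.95 CPM in non-OSCs to 1.99 in OSCs (log2 fold change -1.59, adjusted p = 3.15e-05), and was not called with either hairpin. PPM1K, a mitochondrial phosphatase on the minus strand with its start 309.1 kb away, rose in OSCs (9.70 to 19.2 CPM, adjusted p = 3.27e-06). HERC5, a ligase for the interferon-induced modifier ISG15, rose in OSCs (log2 fold change 0.28, adjusted p = 0.0258) and fell by 0.39 on the log2 scale with shPDK1#2 (adjusted p = 0.0076), while HERC6 was called in no comparison. Thus all tested genes of the window but HERC6 were called between OSCs and non-OSCs, where 63.9% of all genes tested were called. SPARCL1, DSPP, DMP1, IBSP and MEPE did not pass the filter on low counts and could not be called. Of the genes in this window that passed it (SPP1, PKD2, ABCG2, PPM1K, HERC5 and HERC6), SPP1 was called higher with shPDK1#2. Over all genes tested 12% were called higher there and 14.2% lower.

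Other genes of bone formation were taken from 5 lists. Their counts of calls stand beside the shares of all genes tested that were called: 63.9% between OSCs and non-OSCs, 3.06% with shPDK1#1, 26.2% with shPDK1#2 and 16.3% between the hairpins. Of 8 further regulators 7 were tested, among them the mesenchymal homeobox factor PRRX1 and the basic helix-loop-helix factors TWIST1 and TWIST2 that restrain RUNX2. In OSCs 5 of the 7 were called, beside 63.9% of all genes: PRRX1 and HDAC4 rose (log2 fold changes 0.55 and 0.67), MSX1, TWIST2 and DLX6 fell (-0.69, -0.51 and -0.80), and CBFB and TWIST1 were not called. CBFB, the partner subunit that RUNX2 needs to bind DNA, was at 93.4 CPM in non-OSCs and 102.7 in OSCs (log2 fold change 0.14, adjusted p = 0.0899). DLX6, which lies beside DLX5 on chromosome 7, fell as DLX5 did (4.04 to 2.30 CPM, adjusted p = 0.0204), a call lost without non-OSC replicate 3 or OSC replicate 1 (adjusted p up to 0.102). Its exons overlap the antisense gene DLX6-AS1 by 22.0%. With shPDK1#1 edgeR's quasi-likelihood test called 0 of the 7, beside 3.06% of all genes. Of the 7, 1 had an unadjusted p under 0.05, a threshold at which all genes were not counted. With shPDK1#2 the same test called 5 of 7, beside 26.2% of all genes: TWIST1 rose (log2 fold change 0.41, adjusted p = 0.00329) and MSX1, TWIST2, PRRX1 and HDAC4 fell. HDAC4, a deacetylase that restrains RUNX2, fell by 0.71 on the log2 scale (98.3 to 60.1 CPM, adjusted p = 1.32e-09), and MSX1 fell by 0.57 (111.6 to 75.2 CPM, adjusted p = 1.65e-07). The deposited HDAC4 counts were whole in 5 of 15 libraries, and its exons overlap genes on the opposite strand by 2.53%. MSX1, TWIST2, PRRX1 and HDAC4 were also lower with shPDK1#2 than with shPDK1#1 (4 of 7 called, beside 16.3% of all genes), by log2 fold changes of -0.14 for PRRX1 to -0.51 for HDAC4. The call of PRRX1 against shCtrl was lost without shCtrl replicate 2 (adjusted p = 0.0565), and between the hairpins PRRX1 lost its call in 5 of 15 alternatives (adjusted p up to 0.165) and TWIST2 without shPDK1#1 replicate 2 or shPDK1#2 replicate 1 (up to 0.103).

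Of 11 mineralization genes 7 were tested, and 5 of them were called in OSCs, 2 with shPDK1#1, 3 with shPDK1#2 and 2 between the hairpins, beside 63.9%, 3.06%, 26.2% and 16.3% of all genes. ENPP1, which makes the mineralization inhibitor pyrophosphate, ANKH, which exports ATP and pyrophosphate, and PHEX, a peptidase that acts on acidic matrix peptides, rose in OSCs (log2 fold changes 1.63, 1.27 and 1.82). PHEX had 5 to 8 counts in the non-OSC libraries and 17 to 22 in the OSC libraries, and passed the filter only through the OSC group, where it was higher. The 5 calls in OSCs include PHEX. The 7 tested genes also include PHOSPHO1, which passed there only together with the OSC group and was not called in OSCs. The phosphate transporter SLC20A1 fell (-0.47), and FAM20C, the secretory kinase that phosphorylates SPP1 and related proteins, fell from 311.5 to 99.1 CPM (log2 fold change -1.65, adjusted p = 2.05e-15) while SPP1 rose. With shPDK1#1 ENPP1 and ANKH were higher (log2 fold changes 0.35 and 0.17, adjusted p = 0.000819 and 0.0396), and ANKH lost its call in 8 of 15 alternatives (adjusted p up to 0.217). With shPDK1#2 FAM20C fell by 0.51 on the log2 scale (55.5 to 39.1 CPM, adjusted p = 3.29e-06) and ENPP1 and PHOSPHO1 rose (0.17 and 1.03, adjusted p = 0.0325 and 0.0272), each losing its call in 5 of 15 alternatives (adjusted p up to 0.147 and 0.128). Between the hairpins FAM20C and ENPP1 were lower with shPDK1#2, a call that ENPP1 lost in 9 of 15 alternatives (adjusted p up to 0.231).

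Of 8 further matrix genes 4 passed the filter. BGN (log2 fold change 0.55), SMOC1 (0.97) and TNC (2.57) rose in OSCs, where 32.4% of all genes tested were called higher. MGP, an inhibitor of soft tissue calcification, passed in that table only through the OSC group (3 to 7 counts in the non-OSC libraries and 15 to 18 in the OSC libraries, log2 fold change 1.95), and is not counted with them. It was at 0.289, 0.438 and 0.771 CPM in non-OSCs, 1.85, 1.82 and 2.17 CPM in OSCs, 3.07, 2.61 and 1.86 CPM with shCtrl and 3.48, 3.14 and 3.48 CPM with shPDK1#1. In the shPDK1#2 libraries it was at 11.8, 8.70 and 10.3 CPM. The shPDK1#2 libraries stood clear of all others, 4.09-fold above shCtrl (log2 fold change 2.02, SE 0.218, adjusted p = 7.84e-08). TNC, an adhesion-modulating glycoprotein, and SMOC1, a calcium-binding matrix protein of the SPARC family, went the other way with shPDK1#2 (log2 fold changes -0.25 and -1.17, adjusted p = 0.000191 and 1.07e-10). With shPDK1#2 3 of 4 were thus called, beside 26.2% of all genes, and with shPDK1#1 edgeR's quasi-likelihood test called 0 of 4, beside 3.06%. Of the 4, 2 had an unadjusted p under 0.05 with shPDK1#1, a threshold at which all genes were not counted. MGP was higher and TNC and SMOC1 were lower with shPDK1#2 than with shPDK1#1 (3 of 4 called, beside 16.3%), and TNC lost that call in 4 of 15 alternatives (adjusted p up to 0.169).

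Of 6 signal and osteocyte genes 2 were tested, and both were called in OSCs and with shPDK1#2, beside 63.9% and 26.2% of all genes. TNFRSF11B (osteoprotegerin), the decoy receptor that blocks osteoclast formation, was at 17.3 CPM in non-OSCs and 168.1 in OSCs (log2 fold change 3.28, adjusted p = 5.7e-19). With shPDK1#2 TNFRSF11B fell from 145.0 to 63.6 CPM (log2 fold change -1.19, adjusted p = 2.04e-13) where SPP1 rose, and with shPDK1#1 it was at 135.3 CPM (log2 fold change -0.10, adjusted p = 0.468). PDPN, a membrane glycoprotein of early osteocytes, fell with shPDK1#2 (27.9 to 15.9 CPM, adjusted p = 1.35e-06), and its fall in OSCs (log2 fold change -0.18, adjusted p = 0.0481) lost its call in 7 of 11 alternatives (adjusted p up to 0.245). Of the 4 receptors of SPP1 and related proteins 3 were called in OSCs, 1 with shPDK1#1, 3 with shPDK1#2 and 1 between the hairpins, beside the same 63.9%, 3.06%, 26.2% and 16.3%. CD44, ITGAV and ITGB5 rose in OSCs (log2 fold changes 0.20, 1.66 and 0.52) and ITGB3 was not called. ITGB3 fell with both hairpins (31.4 CPM with shCtrl, 22.6 with shPDK1#1 and 18.7 with shPDK1#2, adjusted p = 0.00498 and 2.13e-06), and ITGAV and ITGB5 fell with shPDK1#2 (log2 fold changes -0.24 and -0.12). ITGB5 lost that call in 7 of 15 alternatives (adjusted p up to 0.153), and ITGB3 shares 33.2% of its exon sequence with another gene on the same strand. ITGAV was also lower with shPDK1#2 than with shPDK1#1 (log2 fold change -0.29).

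The medians of the 5 lists can be set beside those of all genes. In OSCs they were -0.06 (regulators), 0.07 (mineralization), 1.46 (matrix), 1.55 (signals) and 0.36 (receptors) on the log2 scale, against -0.0053 over all genes. The OSC medians of the mineralization and matrix lists include PHEX, PHOSPHO1 and MGP, which passed the filter there only through or together with the OSC group. With shPDK1#2 they were -0.16, 0.06, -0.11, -0.998 and -0.18 in the same order, against 0.0083, and with shPDK1#1 they were -0.02, 0.17, -0.10, -0.13 and -0.03, against 0.0024. These are small lists described without a test.

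**Figure D3:**
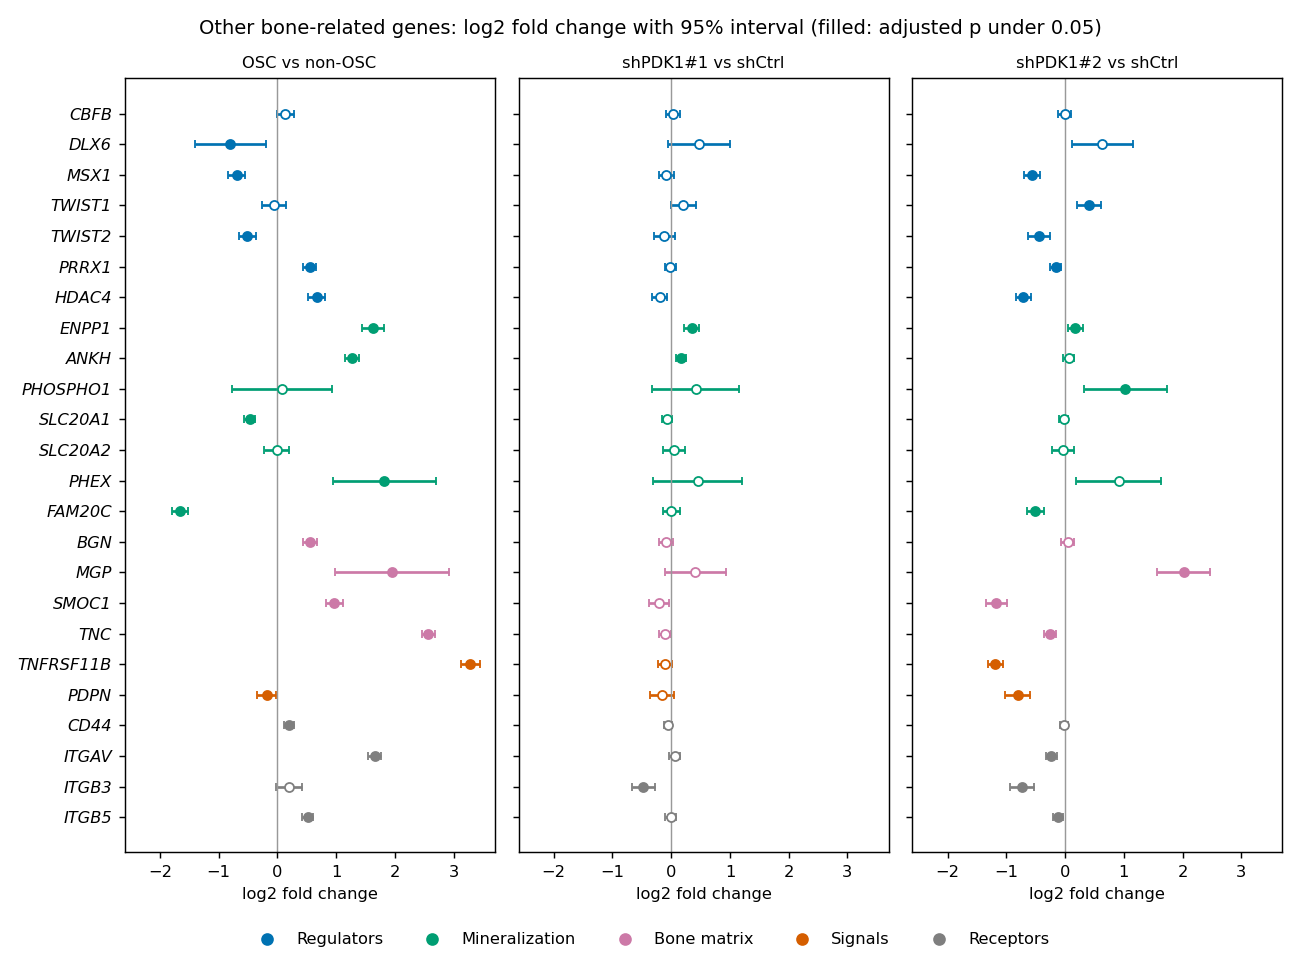
Log2 fold change (horizontal axis) with 95% interval of the 24 tested genes of the 5 further bone lists, coloured by list, for OSCs against non-OSCs and each PDK1 hairpin against shCtrl; filled points have an adjusted p under 0.05. TNFRSF11B, TNC, SMOC1, HDAC4, PRRX1, ITGAV and ITGB5 have filled points to the right in OSCs and to the left with shPDK1#2. MGP lies to the right in both, but between OSCs and non-OSCs it passed the filter only through the OSC group.

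For the 4 osteoblast genes with at least 10 CPM in the hairpin libraries, the genes most like them over those 9 libraries were sought among 10056 genes by Pearson's correlation of log2 CPM. They were BTF3 (r = 0.991) and PNMA2 (0.989) for SPP1, MIR100HG (0.987) and LY6K (0.987) for SPARC, FXR2 (0.956) and GOLGA2 (0.954) for RUNX2, and C12orf57 (0.939) and FIP1L1 (0.936) for MSX2. The 9 libraries share their 3 hairpin groups, and these are the highest values of many, so they are given as a description.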

How the data were processed

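RNA from 15 libraries of 143B cells was sequenced as paired-end reads on an Illumina NovaSeq after preparation with a NEBNext Ultra kit. Trimmomatic 0.39, FastQC 0.12.1, alignment by STAR 2.7.11a on GRCh38.p14, and RSEM 1.3.3 were the authors' steps, and they deposited the unnormalized expected counts of RSEM. The annotation and the use of strand are not given in the sources used here. In the tables of the submitters the columns S2D and S3D were read as the adherent and sphere libraries, con as shCtrl, and the PDK1 columns by hairpin and replicate number, and 0 columns were left unmapped.

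Expected counts were rounded (6.85% and 6.92% of values were not whole) and analysed with edgeR 4.0.16 in R 4.3.3 (filterByExpr, TMM, quasi-likelihood test, Benjamini-Hochberg adjustment over all genes tested, threshold 0.05), first tested on simulated data. The OSC and non-OSC libraries (6) and the hairpin libraries (9) are separate tables and were fitted apart, and their levels are set side by side without a test. CPM used TMM library sizes, with factors of 0.981 to 1.02. Members left out by the filter were tested by exact permutation of log2(CPM + 0.1). No library pair within a condition matched within counting noise (chi-square/df of 1.95 to 3.70). Loci and canonical transcript lengths came from GENCODE 44. Genes named are the 9 members, PDK1, the called genes of 5 bone gene lists, the markers of other cell types, the 2 genes most like each member and, chosen after their values were seen, CBFB and the neighbours of SPP1 and BGLAP. An item of the regulator list is not reported here. The members and lists were chosen with earlier results of these data known. Alternatives were DESeq2 1.42.0, a replicate block, library size alone, no filter, a minimum of 10 counts in all libraries, the compared groups alone and each library left out in turn. Figures were drawn with matplotlib 3.10.9.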

Additional observations from a re-analysis of the deposited data

How the results depend on the processing

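The 5 calls between OSCs and non-OSCs and those of SPP1 and SPARC with shPDK1#2, against shCtrl and against shPDK1#1, kept their direction and stayed past the threshold under DESeq2, library size alone, no filter, at least 10 counts in every library, the replicate block, the compared groups alone (hairpins) and every library left out. With 1 library left out the number of osteoblast genes called was 5 to 6 for OSCs, 0 to 1 for shPDK1#1, 2 to 3 for shPDK1#2 and 2 for shPDK1#2 against shPDK1#1. The sixth call for OSCs was ALPL, the call for shPDK1#1 was SPP1, and the call lost for shPDK1#2 was DLX5. ALPL could not be tested between OSCs and non-OSCs with at least 10 counts in every library, since it had 8 counts in 1 library. The number of all genes called for shPDK1#1, 446, ranged from 245 to 508 with 1 library left out, lowest without shPDK1#1 replicate 3, and was more than 1.5 times below 446 also without shCtrl replicate 1 or 2. Log2 fold changes that were near 0 and not called changed sign with 1 library left out for RUNX2 with shPDK1#1 (-0.11 to 0.019), ALPL with shPDK1#2 (-0.69 to 0.10) and MSX2 between the hairpins (-0.060 to 0.025), and the cause was not tested. Same-numbered libraries did not deviate together (correlations -0.05 to 0.09), so the numbers were not taken to pair libraries. With the replicate block 9420, 507, 3943 and 2522 genes were called in the 4 comparisons, against 9126, 446, 3812 and 2374 without it, and 5, 0, 3 and 2 osteoblast genes in both. Depth limits SP7, IBSP and BGLAP, for which a level under the floor of 0.267 to 0.375 CPM per library cannot be told from 0, and ALPL, measured with 8 to 28 counts per library.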
